A study of Mus musculus with 9 samples.

Results

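Bone morphogenetic proteins (BMPs) are secreted ligands of the TGF-beta superfamily, and 10 genes of their pathway are described here: the antagonists Grem1 and Nog, the ligands Bmp2, Bmp4 and Bmp7, the target genes Id1, Id2 and Id3, and the inhibitors Smad6 and Bambi. They were chosen by name, as pathway members, from the 49671 genes in the deposited count tables, with earlier results of these data known. Grem1 was chosen also because it has no count in knockout tumours. Its tumour values are therefore a description with no test. All 10 symbols matched 1 gene each in GENCODE M21 on GRCm38. The study compared a mouse pancreatic cancer line, KPCWT (here WT), with a CD49b knockout line, KPC49bKO (here KO). CD49b is integrin alpha 2, a collagen receptor subunit encoded by Itga2. Both lines were sequenced as cultures in serum-containing medium (2 WT and 2 KO libraries) and as subcutaneous flank tumours in syngeneic C57BL/6 mice (3 WT and 2 KO libraries), with tumours dissociated by enzymes before RNA was extracted. The sources used here give no age or sex for the mice. Each genotype is represented by 1 line, so the knockout and any other difference between the lines cannot be told apart, and the labels give culture and tumour as separate batches. The labels call the libraries biological replicates without naming separate mice or passages, so p-values measure the spread between these libraries.

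BMP ligands bind pairs of type I and type II serine/threonine kinase receptors, which phosphorylate the transcription factors Smad1, Smad5 and Smad9; these join Smad4 and switch on target genes, the Id genes foremost. Id proteins bind basic helix-loop-helix transcription factors and keep them off DNA. The pathway is held back outside the cell by antagonists such as Gremlin 1 and Noggin, which capture ligand, at the membrane by the pseudoreceptor Bambi, and inside the cell by the inhibitory Smad6. In pancreatic cancer, the pathway is best known through Smad4, which is often lost, and through Gremlin 1, which stromal or tumour cells can secrete.

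Total counts per library ran from 17738774 to 21247023 in culture and from 16032912 to 19562695 in tumours. Levels are CPM, the counts of a gene scaled to library size by TMM over all 9 libraries, and the KO tumours are called 1 and 3 after their columns. Itga2 levels were 168 and 135 CPM in WT cultures, 96.5 and 104 CPM in KO cultures, 119 to 144 CPM in WT tumours, and 44.5 and 64.1 CPM in KO tumours. It was lower in KO in both settings (log2 fold change −0.64, SE 0.17, edgeR adjusted p = 0.0135 in culture; −1.32, SE 0.18, edgeR adjusted p = 0.00602 in tumours), but its RNA was not absent. Tumours hold host cells. The summed level of 9 fibroblast markers was 1230 to 3170 CPM in WT tumours, 442 and 699 CPM in KO tumours and at most 2.59 CPM in any culture. In culture, Col1a2, Dcn, Lum, Thy1 and Postn had no count in either line. Col1a1 had 50 counts in the WT cultures and 1 in the KO cultures, and was called lower in KO (−5.41, SE 0.98, edgeR adjusted p = 0.00135). It passed the filter on low counts through the WT cultures alone. The 5 epithelial markers summed to 9460 to 10300 CPM in cultures, 4110 to 5330 CPM in WT tumours, and 7300 and 9110 CPM in KO tumours, although Epcam itself had 1 count in the KO cultures against 109 in the WT cultures. WT tumour 3 stood apart from the other WT tumours in its muscle markers (90.8 CPM summed) and neutrophil markers (42.7 CPM summed). Among WT tumours it also had the highest fibroblast (3170 CPM), endothelial (144 CPM) and pericyte (143 CPM) sums and the lowest T cell sum (3.06 CPM).

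Grem1 encodes the secreted antagonist Gremlin 1, which binds Bmp2 and Bmp4 (gene ENSMUSG00000074934, chromosome 2, 113746164 to 113758646, minus strand). It had 66 and 55 counts in the WT cultures and 0 and 2 counts in the KO cultures, or 4.17 and 3.59 against 0 and 0.139 CPM. The groups did not overlap. The KO-to-WT ratio of scaled counts was 0.0159, with a 95% exact binomial counting interval of 0.0019 to 0.0587. Grem1 was lower by the test across all genes (edgeR adjusted p = 4.22e-05), having passed the filter on low counts through the WT cultures alone. It was chosen by its counts in tumours of these same lines, so this p-value is not independent of that choice. In WT tumours it had 148, 274 and 266 counts, or 7.19, 13.8 and 11.3 CPM. In both KO tumours it had 0 counts, which makes it at least 128-fold lower against a floor of 3 counts over the group. Both WT groups were thus above both KO groups, WT tumours above WT cultures, and the KO groups lay at or under the level of 3 counts in a library (0.128 to 0.208 CPM).

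Fibroblast markers moved with Grem1 between the tumour groups: 5 of the 9 were called lower in KO tumours, where 10.9% of all genes were lower (19.7% called), and none was at 0 there. In bulk tumours, fewer cells of a type and less RNA per cell cannot be told apart. The WT cultures had Grem1 counts with fibroblast markers at 1.04 and 2.59 CPM summed. In WT tumours 1, 2 and 3, Grem1 was at 7.19, 13.8 and 11.3 CPM and the fibroblast markers summed to 1870, 1230 and 3170 CPM. The KO tumours, at 442 and 699 CPM of fibroblast markers, had no Grem1 count. The part of the fibroblast markers' shift in the tumour values was not tested.

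The 250 bases before the RefSeq start of Grem1 (GRCm38.p6, chr2:113758649-113758898, minus strand) are shown because Grem1 has no count in KO tumours, beside those of Bmp4 (chr14:46390670-46390919, minus strand), which was also low in KO tumours. They were searched on both strands for GGCGCC and GGAGCC, GC-rich sites that BMP Smads can bind, and for the Smad box CAGAC. Matches are in capitals, and positions count back from the start site.
Grem1: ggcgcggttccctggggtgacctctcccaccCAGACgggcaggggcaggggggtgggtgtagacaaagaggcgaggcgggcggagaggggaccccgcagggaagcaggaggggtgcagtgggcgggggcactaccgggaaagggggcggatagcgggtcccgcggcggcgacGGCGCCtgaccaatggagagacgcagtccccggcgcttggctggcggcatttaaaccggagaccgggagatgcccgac
Bmp4: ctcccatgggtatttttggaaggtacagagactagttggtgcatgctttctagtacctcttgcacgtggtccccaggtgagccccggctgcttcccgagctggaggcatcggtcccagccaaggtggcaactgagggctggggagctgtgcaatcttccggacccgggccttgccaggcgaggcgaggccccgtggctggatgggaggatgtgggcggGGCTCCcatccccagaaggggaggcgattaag
The Grem1 window holds 1 GGCGCC, beginning at position -78, and 1 CAGAC, at position -219. The Bmp4 window holds 1 GGAGCC, written GGCTCC on this strand, at position -32. GGCGCC occurs in 9.59% of 32851 mouse promoters of the same length, GGAGCC in 26.0% and CAGAC in 42.2%. In these 2 windows no match overlaps another. GC content was 72% for Grem1 and 63.2% for Bmp4, against a median of 52.4% over all promoters. Of the 10 genes, 5 had a window: Smad6 has 2 GGAGCC, Id2 has 1 GGCGCC and 1 GGAGCC, and Id3 has 1 GGAGCC and 2 CAGAC. The Id2 and Id3 windows lie inside the GENCODE bounds of these genes and touch an annotated exon, so they are not wholly upstream of every annotated start.

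Nog, which encodes the antagonist Noggin (chromosome 11, 89300638 to 89302332, minus strand), had 0 counts in all 4 cultures. In tumours it had 3, 0 and 0 counts in WT and 0 and 1 count in KO. A count of 0 allows up to 0.128 to 0.208 CPM in a library (3 counts), so Noggin RNA was not detectable at this depth in most libraries, and Nog was not tested.

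**Figure D1:**
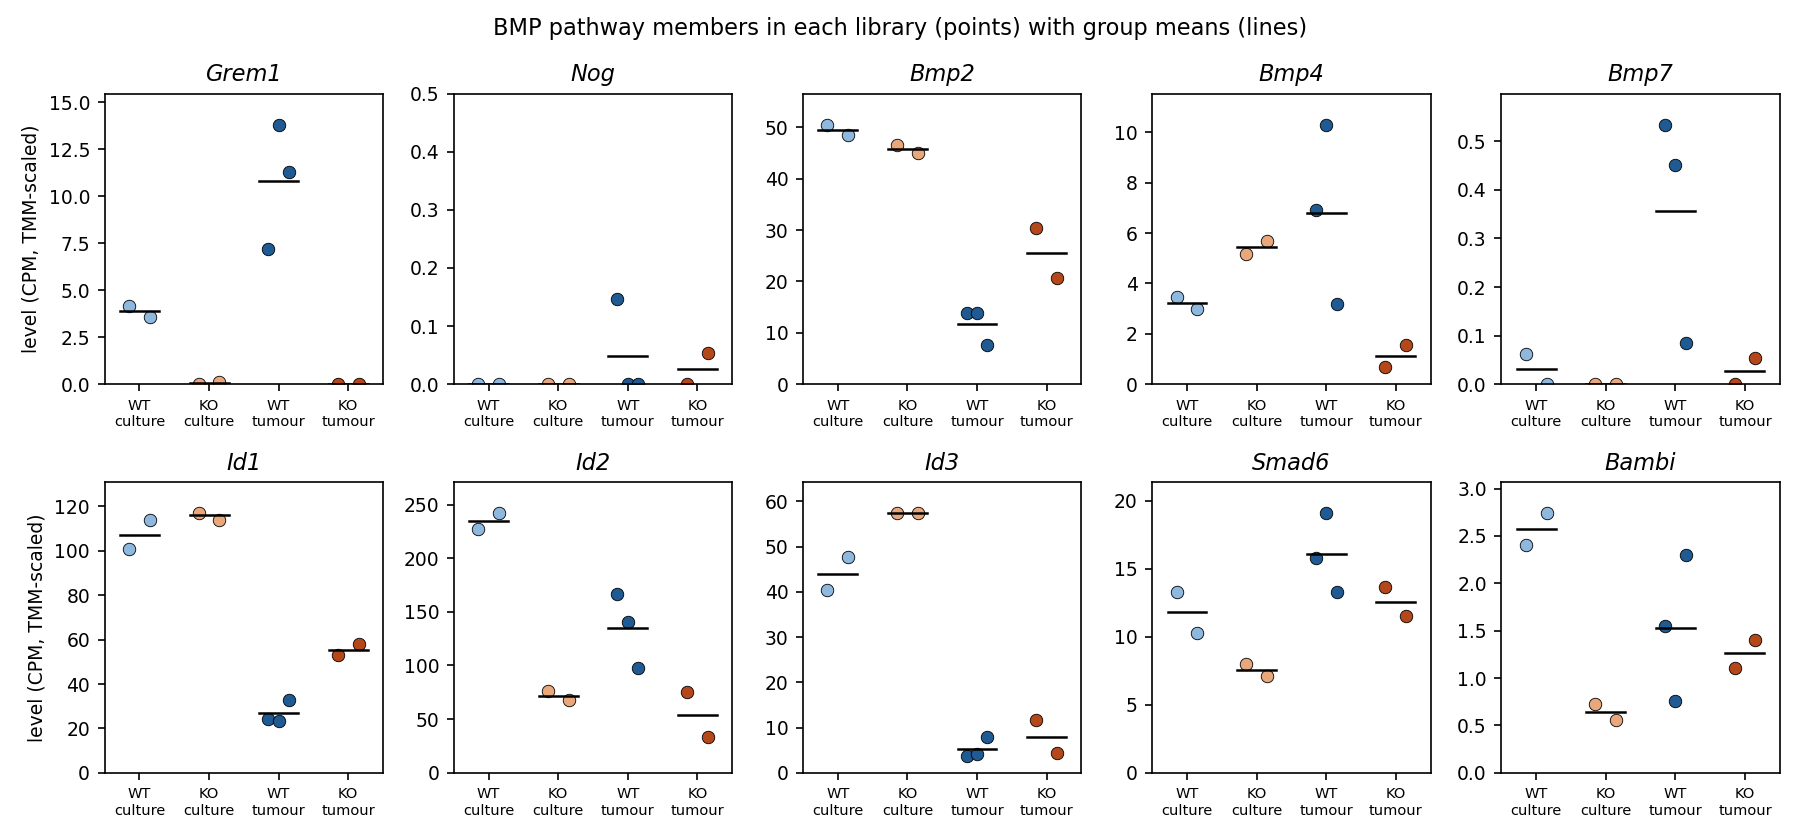
Level of each of the 10 genes (vertical axis, CPM scaled by TMM, its own scale in each panel) in the WT and KO cultures and tumours; points are libraries and lines are group means. Grem1 has points above 3 CPM in WT libraries only, Bmp4 is lowest in the KO tumours, Id2 is lower in KO than in WT in both settings, and Id1 is lowest in WT tumours.

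Bmp2 (chromosome 2, 133552159 to 133562885, plus strand) was the ligand with the highest level per length, at 13.9 CPM per kb in WT cultures against 1.44 for Bmp4. The WT cultures gave 50.5 and 48.4 CPM, the KO cultures 46.6 and 44.9 CPM. These values lie close together, and the difference was not called (log2 fold change −0.15, SE 0.16, edgeR adjusted p = 0.535). The WT tumours gave 13.8, 13.8 and 7.66 CPM, the KO tumours 30.3 and 20.7 CPM. Both KO tumours were above every WT tumour, and Bmp2 was higher in KO (1.11, SE 0.31, edgeR adjusted p = 0.0497). The call was lost without WT tumour 1, 2 or 3 (edgeR adjusted p = 0.0992, 0.104 and 0.0622) or KO tumour 1 (log2 fold change 0.79, edgeR adjusted p = 0.208), and with scaling by library totals (0.0568).

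Bmp4 (chromosome 14, 46383520 to 46390669, minus strand) showed opposite orders in the 2 settings. Its levels were 3.47 and 3.00 CPM in the WT cultures against 5.17 and 5.69 CPM in the KO cultures. Both KO cultures were above both WT cultures, but the difference was not called (0.70, SE 0.28, edgeR adjusted p = 0.0885). The WT tumours had 6.90, 10.3 and 3.19 CPM of Bmp4, whereas the KO tumours had 0.701 and 1.57 CPM. Every KO tumour was below every WT tumour, and Bmp4 was lower in KO (−2.59, SE 0.62, edgeR adjusted p = 0.0316). The lowest WT tumour for Bmp4 was WT tumour 3, which had the highest fibroblast marker sum (3170 CPM). The call was lost without WT tumour 1 (−2.59, edgeR adjusted p = 0.0872), WT tumour 2 (−2.17, 0.094) or KO tumour 1 (−2.13, 0.127) and with limma-voom (−2.47, adjusted p = 0.0688); without KO tumour 3 the change was −3.25. The antisense gene Gm15217, which overlaps Bmp4 exons, had at most 4 counts in a group.

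Bmp7 (chromosome 2, 172868012 to 172940321, minus strand) was close to absent. It had 1 and 0 counts in WT cultures, 0 in both KO cultures, 11, 9 and 2 counts in WT tumours, and 0 and 1 count in KO tumours. The KO-to-WT ratio in tumours was 0.0816, with a 95% counting interval of 0.00198 to 0.505 that leaves out the spread between tumours. Bmp7 did not pass the filter on low counts and was not tested.

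**Figure D2:**
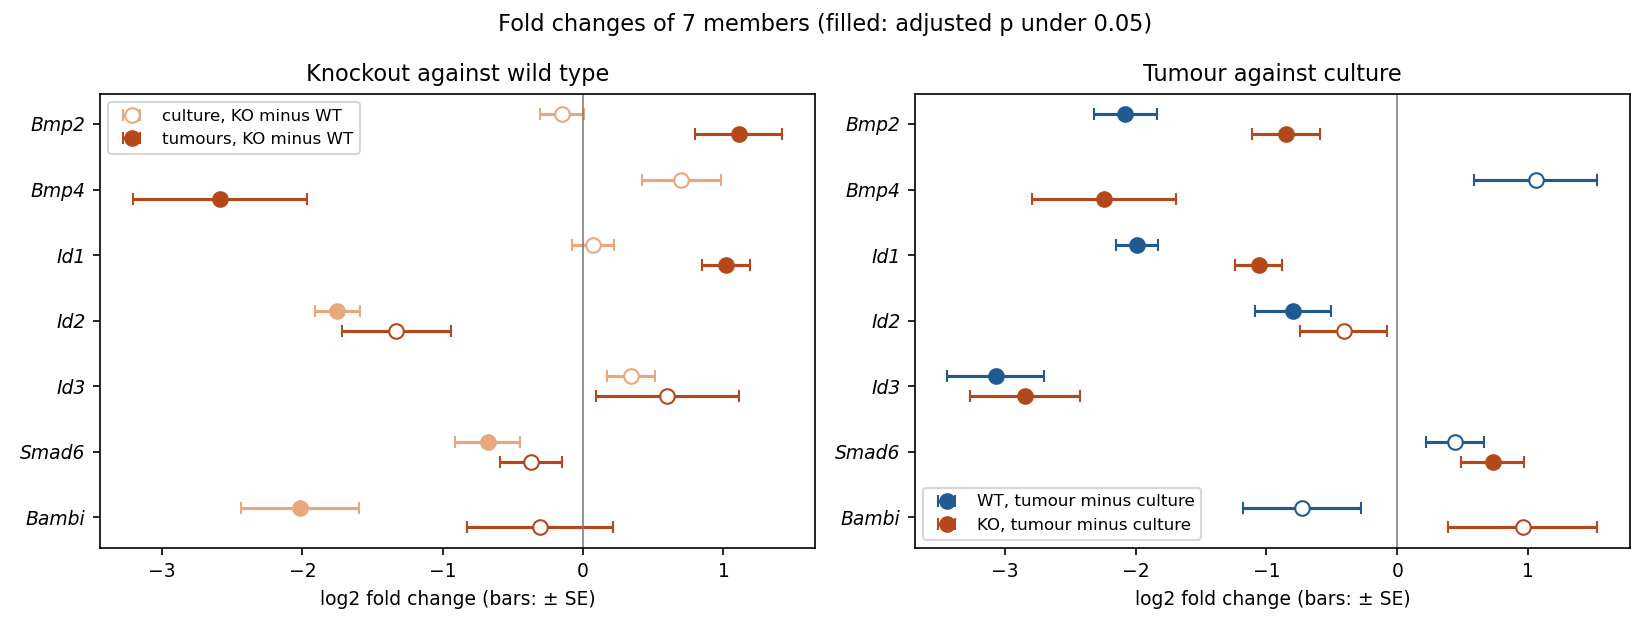
Log2 fold changes (horizontal axis, bars ± SE) of the 7 genes tested in all comparisons, KO against WT on the left and tumour against culture on the right; filled points have an adjusted p under 0.05. Bmp4 lies at 0.70 in culture and −2.59 in tumours, and the Id genes lie below 0 for tumour against culture in both lines.

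Of the 3 Id genes, Id2 was lower in KO cultures and Id1 was higher in KO tumours, while Id3 was called in neither setting. Id2 (chromosome 12, 25093799 to 25097140, minus strand) was measured at 227 and 242 CPM in the WT cultures against 76.1 and 68.0 CPM in the KO cultures. The groups lay far apart, and Id2 was lower in KO (−1.75, SE 0.16, edgeR adjusted p = 6.8e-06), a call kept under every alternative run. Among tumours, Id2 levels were 167, 141 and 97.9 CPM for WT against 75.1 and 33.3 CPM for KO. No KO tumour reached a WT tumour, with a change of −1.33 (SE 0.39), but it missed the threshold (edgeR adjusted p = 0.0561). It passed with 1 fit of all 9 libraries (−1.32, edgeR adjusted p = 0.0101), with DESeq2 (−1.32, adjusted p = 0.00332), with limma-voom (−1.43, adjusted p = 0.0447), with library totals (−1.44, edgeR adjusted p = 0.0377), with no filter (−1.34, 0.00339) and without KO tumour 1 (−2.05, 0.021).

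Id1 (chromosome 2, 152736251 to 152737410, plus strand) was measured at 101 and 114 CPM in the WT cultures against 117 and 114 CPM in the KO cultures. The KO values lie at or just above the higher WT value, and no difference was called (0.07, SE 0.15, edgeR adjusted p = 0.787). The WT tumours gave 24.3, 23.5 and 33.0 CPM of Id1, the KO tumours 53.1 and 57.9 CPM. The KO tumours were above all WT tumours, and Id1 was higher in KO (1.02, SE 0.17, edgeR adjusted p = 0.0114). The adjusted p was 0.0501 without WT tumour 1 and 0.0507 without WT tumour 2.

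Id3 (chromosome 4, 136143497 to 136145755, plus strand) gave 40.4 and 47.6 CPM in the WT cultures, below the 57.4 CPM of both KO cultures, which was not called (0.34, SE 0.17, edgeR adjusted p = 0.159). Among tumours, Id3 levels were 3.64, 4.07 and 7.91 CPM for WT against 11.6 and 4.43 CPM for KO. The tumour groups overlapped, with no call (0.60, SE 0.51, edgeR adjusted p = 0.438), and the sign turned to −0.26 without KO tumour 1.

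Per length of exon, the make-up of the family differed between the lines. Id2 made up 44.4% to 46.0% of the summed Id1, Id2 and Id3 CPM per kb in WT cultures and 17.6% to 19.0% in KO cultures. In tumours its share was 55% to 74.9% in WT and 20.7% to 37.1% in KO. Id1 had the complementary pattern, at 42.9% to 43.7% in WT cultures, 61.4% to 62.2% in KO cultures, 22.9% to 39.0% in WT tumours and 55.1% to 75.6% in KO tumours. The shares are parts of the same sum, so a lower Id2 share by itself raises the Id1 share. In culture the Id1 level was not called different (log2 fold change 0.07, edgeR adjusted p = 0.787). The Id2 share was above the Id1 share in every WT library and below it in every KO library. Id3 held 11.1% to 20.2% in cultures and 2.22% to 7.77% in tumours.

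**Figure D3:**
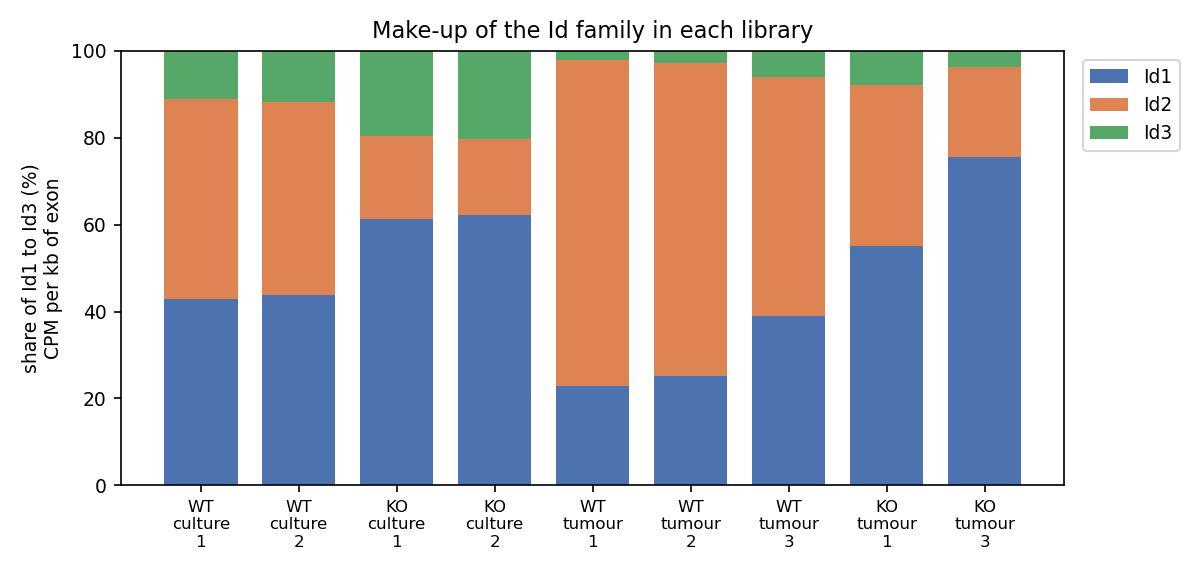
Share of Id1, Id2 and Id3 in their summed CPM per kb of exon (vertical axis, percent) in each of the 9 libraries (horizontal axis). The Id2 segment is 44.4% or more in each WT library and 37.1% or less in each KO library.

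Smad6 encodes the inhibitory Smad that blocks BMP type I receptor signalling and is itself induced by BMP (chromosome 9, 63953076 to 64022059, minus strand). The WT cultures gave 13.3 and 10.3 CPM, the KO cultures 8.0 and 7.15 CPM. It was lower in KO at the edge of the threshold (−0.68, SE 0.23, edgeR adjusted p = 0.0494). The call was lost under RLE scaling (edgeR adjusted p = 0.0507), library totals (0.0739), no filter (0.052), DESeq2 (0.13), limma-voom (0.0568) and 1 fit of all libraries (0.1), and on leaving out WT culture 1 (−0.47, 0.345) or either KO culture (−0.77, 0.0611 for the first and −0.60, 0.135 for the other). The WT tumours gave 15.8, 19.1 and 13.3 CPM, the KO tumours 13.7 and 11.5 CPM, with overlapping groups and no call (−0.37, SE 0.22, edgeR adjusted p = 0.279).

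Bambi encodes a membrane pseudoreceptor that lacks a kinase domain (chromosome 18, 3507923 to 3516404, plus strand). Its levels were 2.40 and 2.74 CPM in the WT cultures against 0.723 and 0.555 CPM in the KO cultures, from 38 and 42 against 13 and 8 counts. Both KO cultures were below both WT cultures, and Bambi was lower in KO (−2.02, SE 0.42, edgeR adjusted p = 0.00354), a call kept under every alternative run. Among tumours, Bambi levels were 1.55, 0.753 and 2.30 CPM for WT against 1.11 and 1.40 CPM for KO. The KO values lay inside the WT range, with no call (−0.31, SE 0.52, edgeR adjusted p = 0.707) and a change of 0.08 without WT tumour 3.

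In culture, 8 of the 10 genes passed the filter on low counts, which left out Nog and Bmp7. Of these, 4 were lower in KO (Grem1, Id2, Smad6 and Bambi), 0 were higher by edgeR and 4 were not called. Grem1 is included in these culture counts and their median, although it was chosen by its counts in tumours of the same lines. At an unadjusted p under 0.05 there were 5, and DESeq2 and limma-voom gave 3 lower and 0 higher. Of all genes tested in culture, 25.5% were called, made up of 16.2% lower and 9.27% higher. Groups did not overlap for all 8, as for 62% of the genes tested. The median log2 fold change of the 8 genes was −0.42, against 0 over all genes. In tumours, 7 of the 9 genes other than Grem1 passed: Bmp2 and Id1 were higher in KO, Bmp4 was lower and 4 were not called. The background there was 19.7% called, with 8.78% higher and 10.9% lower. Groups did not overlap for Bmp2, Bmp4, Id1 and Id2, or 4 of the 7, as for 53.7% of the genes tested. The median was −0.31, against −0.01 over all genes. Without WT tumour 1, or without WT tumour 2, 0 of the 3 tumour calls were left by edgeR, with 4 genes at an unadjusted p under 0.05 in each case; with all libraries, DESeq2 called 2 higher and 2 lower.

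The effect of the knockout in tumours was then compared with that in culture, in 1 fit of all 9 libraries, where 5.69% of genes were called, 4.15% with a higher and 1.54% with a lower KO effect in tumours. Of the 7 genes tested, Bmp4 and Id1 differed. The KO effect on Bmp4 was lower in tumours (log2 difference −3.31, SE 0.72, edgeR adjusted p = 0.0249). The KO effect on Id1 was higher in tumours (difference 0.93, SE 0.24, edgeR adjusted p = 0.0472). Bmp2 missed the threshold (1.23, SE 0.36, edgeR adjusted p = 0.0709), as did Bambi (1.69, SE 0.73, edgeR adjusted p = 0.209). The differences for Id2 (0.38), Id3 (0.22) and Smad6 (0.29) had edgeR adjusted p of 0.692, 0.886 and 0.69, so that the smaller Id2 change in tumours is not shown to differ from that in culture. The Bmp4 call was lost with limma-voom (adjusted p = 0.0662), without any 1 culture library (edgeR adjusted p = 0.0726 to 0.128) and without WT tumour 2 (0.0511); without KO tumour 3 the difference was −4.00. The Id1 call was lost under RLE scaling (edgeR adjusted p = 0.0516), library totals (0.0782) and limma-voom (0.0504), and without any 1 library (0.0531 to 0.19) except WT tumour 3 (0.00903).

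**Figure D4:**
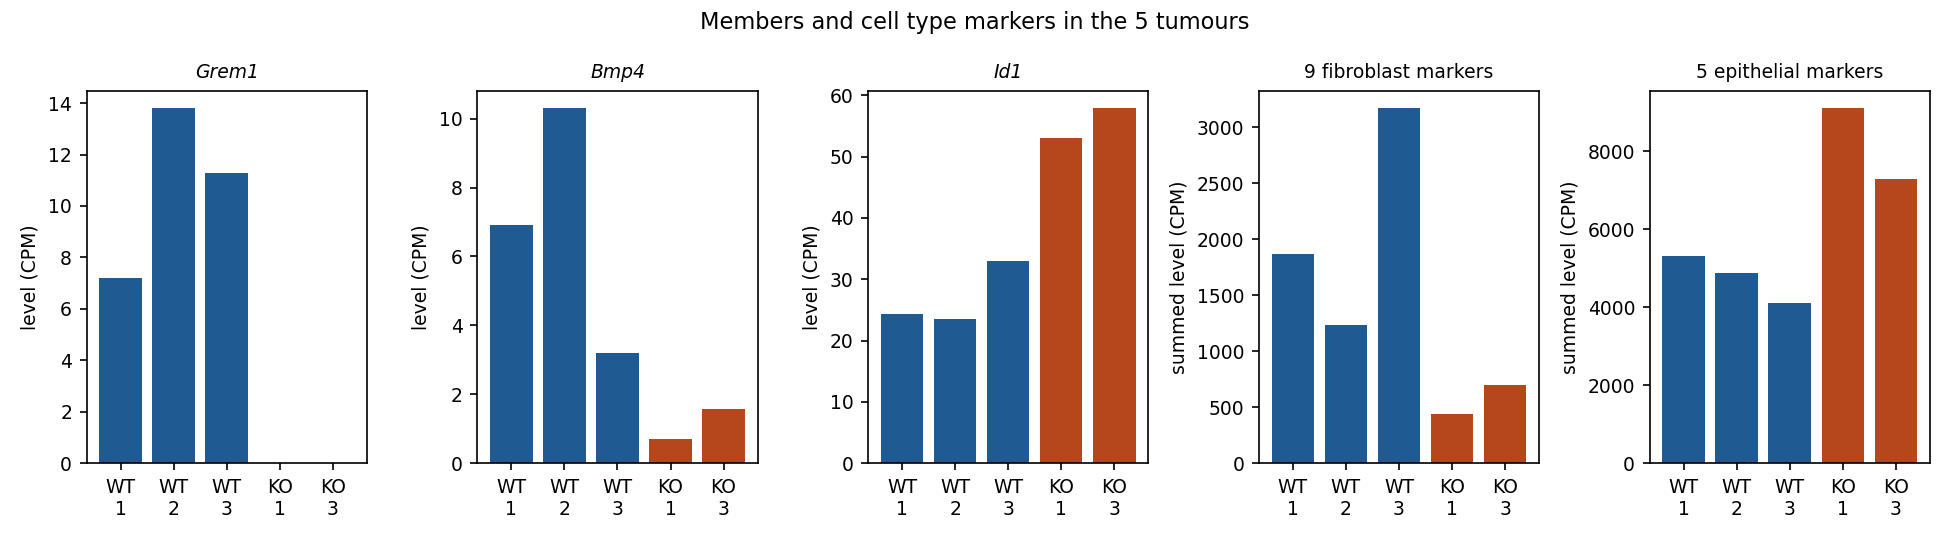
Grem1, Bmp4 and Id1 levels and the summed levels of 9 fibroblast and 5 epithelial markers (vertical axes, CPM, each on its own scale from 0) in the 3 WT and 2 KO tumours; each bar is 1 library. Fibroblast sums are 442 and 699 CPM in KO tumours against 1230 to 3170 CPM in WT tumours, and Bmp4 is lowest among WT tumours where that sum is highest.

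Other marker lists gave the following values in tumours. Endothelial markers summed to 65.5 to 144 CPM in WT tumours and 34.2 and 70.2 CPM in KO tumours, overlapping sums, with 1 of 7 markers called lower (Vwf, −2.43, SE 0.52, edgeR adjusted p = 0.0224). T cell markers summed to 3.06 to 13.7 CPM in WT tumours and 18 and 38.8 CPM in KO tumours, which do not overlap, but edgeR called 0 of the 4, with 2 at an unadjusted p under 0.05. Of the 5 epithelial markers, 2 were called higher in KO tumours and Epcam was called lower. Over all genes, 8.78% were called higher and 10.9% lower in KO tumours (19.7% called), so 1 of 7 does not set the endothelial list apart. The part of the fibroblast, endothelial, T cell and epithelial values in the Bmp2, Bmp4 and Id1 results in tumours was not tested. In the cultures, the T cell markers had no count in any library.

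Tumours were next compared with cultures of the same line, a contrast in which setting, batch and host cells cannot be told apart. WT tumours had lower Bmp2 (−2.08, SE 0.24, edgeR adjusted p = 3.26e-05), Id1 (−1.99, SE 0.16, edgeR adjusted p = 4.73e-06), Id2 (−0.80, SE 0.29, edgeR adjusted p = 0.0305) and Id3 (−3.07, SE 0.37, edgeR adjusted p = 4.04e-05) than WT cultures. Thus 4 of 7 genes were lower and 0 higher by edgeR, with 5 at an unadjusted p under 0.05, where 65.7% of all genes were called, 36.1% higher and 29.6% lower. DESeq2 also called Bmp4 higher (1.14, adjusted p = 0.0356), and limma-voom called 4 lower and 0 higher. KO tumours had lower Id3 (−2.85, SE 0.42, edgeR adjusted p = 0.000207), Bmp4 (−2.24, SE 0.55, edgeR adjusted p = 0.00482), Id1 (−1.06, SE 0.18, edgeR adjusted p = 0.000513) and Bmp2 (−0.85, SE 0.26, edgeR adjusted p = 0.0174) than KO cultures, and higher Smad6 (0.73, SE 0.24, edgeR adjusted p = 0.0236). That is 5 of 7 genes, where 59.3% of all genes were called, 32.9% higher and 26.4% lower.

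With library totals in place of TMM, the median of all genes moved from 0.17 to 0.64 in WT and to 0.60 in KO, and the share of called genes that were higher moved from 54.9% to 72.7% and from 55.5% to 74.4%. Id1 and Id3 remained lower in both lines in each alternative run. Bmp2 in WT also kept its call, at −1.61 with library totals, and so did Bmp4 in KO, at −1.80. With library totals the calls were lost for Id2 in WT (−0.32, edgeR adjusted p = 0.333) and Bmp2 in KO (−0.42, 0.184), while Bmp4 (1.53, 0.0166) and Smad6 (0.91, 0.00493) became higher in WT. Without 1 library, Id2 in WT lost its call (WT culture 1 or 2, edgeR adjusted p = 0.0792 and 0.121; WT tumour 2 or 3, 0.0549 and 0.0804). In KO so did Bmp2 (KO culture 1 or 2, edgeR adjusted p = 0.0657 and 0.0558; KO tumour 3, 0.104) and Smad6 (KO culture 1 or 2, 0.0583 and 0.13; KO tumour 1, 0.0875). Without KO tumour 1 or 3, Bmp4 in KO was −1.78 or −2.95 and Id3 −3.69 or −2.32, all still lower.

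Another 52 genes of the pathway, listed by role, place these results. In culture, 25 passed the filter, 3 were higher and 1 was lower in KO, with a median log2 fold change of 0.06. Over all genes 9.27% were higher and 16.2% lower (25.5% called). Without KO culture 1 the calls were 1 higher and 1 lower, and without KO culture 2 they were 2 and 3. Among 11 other ligands, Bmp8b had 23.3 and 20.9 CPM in the WT cultures against 0.889 and 0.903 CPM in the KO cultures. It was lower in KO (−4.66, SE 0.28, edgeR adjusted p = 2.74e-07), and in tumours too, from 3.82 to 5.87 CPM in WT to 0.175 and 0.378 CPM in KO (−4.08, SE 0.47, edgeR adjusted p = 0.00384). Higher in KO cultures were the activin type II receptor gene Acvr2a (0.71, SE 0.17), the gene of the Smad ubiquitin ligase Smurf1 (0.69, SE 0.18) and Runx2, a transcription factor of bone formation (0.94, SE 0.22). The target gene Msx1, a homeobox factor, had 19 counts in WT cultures and 0 in KO cultures, at least 6.58-fold lower.

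In tumours, 32 of the 52 passed, 1 was higher (Smurf1, 0.53, SE 0.14, edgeR adjusted p = 0.047) and 6 were lower in KO, with a median of −0.25. Over all genes 8.78% were higher and 10.9% lower, and the 7 calls among 32 are near that background of 19.7%. The antagonist Fst, which encodes follistatin, had 6.75, 8.59 and 13.3 CPM in the WT tumours against 0.117 and 1.51 CPM in the KO tumours (−3.55, SE 0.81, edgeR adjusted p = 0.0267). Also lower were Bmp8b, the type II receptor gene Acvr2b (−1.35, SE 0.32), the co-receptor gene Rgma (−2.16, SE 0.51), the signalling gene Smad5 (−0.69, SE 0.11, edgeR adjusted p = 0.00973) and Msx1 (−2.71, SE 0.60). Bmp8b, Rgma and Msx1 had at most 7 counts in a KO tumour. They passed the filter on low counts through the WT tumours alone, so they could only be called lower. Fst had 2 counts in KO tumour 1 and 28 in KO tumour 3. Smad5 levels were 73.0 to 74.0 CPM in the WT tumours against 47.3 and 45.0 CPM in the KO tumours. The KO effects differed between settings for 0 of the 32 by edgeR, with 8 at an unadjusted p under 0.05. Over all genes 5.69% were called for this difference, 4.15% higher and 1.54% lower, so 0 of 32 does not set these genes apart. DESeq2 called 4 of them lower and 0 higher, and limma-voom called 0. Without WT tumour 1, WT tumour 2, WT tumour 3 or KO tumour 1, the 6 lower calls in tumours became 2, 3, 3 and 3. The call of Smurf1 was lost with library totals and on leaving out KO tumour 1 or either of the first 2 WT tumours, where 0 of the 52 were higher by edgeR.

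Of 10 receptor genes tested, 8 were higher in WT tumours than in WT cultures and 1 was lower, where 36.1% of all genes were higher and 29.6% lower, with Acvrl1 (4.88, SE 0.48) and Eng (4.46, SE 0.47) among them. Both are known from endothelial cells, whose 7 markers also rose and summed to at most 0.652 CPM in a culture. The part of these cells was not tested. Acvrl1, Eng, Rgma and Tgfbr3, all called higher in WT tumours, did not pass the filter on low counts in the culture fit, where 6 receptor genes passed. They entered this fit through tumour libraries and could hardly be called lower, so their calls add little to the comparison with all genes. In KO, 4 of 10 receptor genes were higher and 1 lower, against 32.9% and 26.4% of all genes. Over the 52 genes, 15 were higher and 5 lower in WT tumours, with a median of 0.48, and 12 and 8 in KO tumours, with a median of 0.32; library totals gave 23 and 3, and 20 and 5. The 20 calls among 32 genes tested in each line are near the background of 65.7% in WT and 59.3% in KO. Of the 52 genes, 25 had passed the filter in the culture fit, so the rest of the 32 entered through tumours. Without WT culture 1 or 2 the WT calls were 13 and 2 or 11 and 3, and without KO culture 1 or 2 the KO calls were 6 and 7 or 8 and 7. Bmper, a secreted BMP-binding regulator, fell in tumours of both lines (−2.86, SE 0.32, in WT and −3.85, SE 0.40, in KO).

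The genes whose pattern was most like that of Grem1 were Alpl (Pearson r = 0.995 over 9 libraries), Kcnh2 (0.992), Kif21a (0.992), Cpne4 (0.989) and Acot1 (0.989), from 12385 genes with a mean of at least 1 CPM. Kif21a, a kinesin gene, averaged 7.43 CPM in WT cultures, 0 in KO cultures, 22.9 CPM in WT tumours and 0.137 CPM in KO tumours. Most like Id1 were Zfp52 (0.992), Kyat3 (0.991), Angptl4 (0.989), Gtf2h4 (0.988) and Depdc7 (0.987). Angptl4, which encodes a lipase inhibitor, averaged 183 and 181 CPM in WT and KO cultures and 22.4 and 60.6 CPM in WT and KO tumours. The values of r were taken on log2(CPM + 1), and since the libraries fall into 4 groups they describe mainly the order of the groups.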

How the data were processed

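Bulk poly(A) RNA was sequenced in 9 mouse libraries. Per the labels' protocols, ERCC controls were spiked in, and PCR duplicates were removed with unique molecular identifiers. The submitters' processing notes list STAR 2.5.2b, fastp 0.23.1, Subread 1.5.2, featureCounts and DESeq2, and the build GRCm38. The strand setting of the counting is not given in the sources used here. Tests start from the deposited raw counts per gene, 1 table for each setting, with 49671 genes and 0 ERCC rows; GENCODE M21 gives symbols for 49412 genes. In the tumour table, the second KO column carries the number 3, which the labels do not use, and it was tied only to its group.

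Low genes were removed with filterByExpr (at least 10 counts, and 15 in total), libraries were scaled by TMM, and genes were tested with edgeR 4.0.16 (quasi-likelihood F test, R 4.3.3), with Benjamini-Hochberg adjustment over all genes tested and a threshold of 0.05. KO was tested against WT within each setting. The difference of effects and the tumour-to-culture contrasts come from 1 fit of 9 libraries. Fold changes use a prior count of 0.125, and each SE was derived from the fold change and its F value. Within-setting fits scale their own libraries, whereas printed CPM are scaled over all 9. Levels per length use the union of exons. Intervals (95%, exact binomial) and the floor of 3 counts cover counting error only. The scripts were first tested on simulated data. Alternatives were RLE scaling, library totals, no filter, DESeq2 1.42.0, limma 3.58.1 (voom), 1 fit of all libraries, a replicate block and each library left out.

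The 10 genes and all lists were chosen with earlier results of these data known. Named genes were the 10 members, Itga2, called genes of the other pathway lists with the smallest p (up to 4 per list and comparison), list members with a group at 0 counts, markers, and the 5 genes most correlated with Grem1 and with Id1. Promoter windows are RefSeq's, on GRCm38.p6.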

Additional observations from a re-analysis of the deposited data

Results flagged for a closer look

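The effect of the knockout differed between tumours and cultures for Bmp4 and Id1, by a test of the difference itself (edgeR, 9 libraries). For Bmp4 the KO effect was −3.31 in tumours relative to culture on the log2 scale (edgeR adjusted p = 0.0249), with both KO cultures above both WT cultures and both KO tumours below all 3 WT tumours. For Id1 it was 0.93 (edgeR adjusted p = 0.0472), with both KO tumours above all 3 WT tumours. Neither call held under every alternative. The Bmp4 call was lost with limma-voom, without WT tumour 2 and without any 1 culture library. The Id1 call was lost under RLE scaling, library totals, limma-voom and the replicate block in culture, and without any 1 library except WT tumour 3. With 1 line per genotype, the knockout and other differences between the lines cannot be told apart. Fibroblast markers were lower in KO tumours (442 and 699 CPM) than in WT tumours (1230 to 3170 CPM), as was Bmp4, whereas Id1 was higher there. The epithelial marker sum was higher in KO tumours (7300 and 9110 CPM) than in WT tumours (4110 to 5330 CPM), as was Id1, although Epcam was lower. Among the WT tumours, Bmp4 was lowest where the fibroblast sum was highest. The part of these markers in either difference was not tested.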

How the results depend on the processing

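Of the 4 genes called in culture, the count ranged from 3 to 4 under the alternatives other than the block. Of the 3 called in tumours, 0 to 3 were left when 1 library was left out. For the difference, the 2 calls became 1 with RLE scaling, library totals or the replicate block in culture only, 0 with limma-voom, and 0 to 3 with 1 library left out. The KO tumour-to-culture calls, 5 in all, were 3 to 5 with 1 library left out. The causes were not tested. Signs turned, none of them called, for Bambi in tumours (0.08 without WT tumour 3; −0.64 to 0.08 with 1 library left out), Id3 in tumours (−0.26 to 1.16, the lowest without KO tumour 1), the differences of Id2 and Id3 (−0.29 to 0.86 and −0.61 to 0.76, the lowest without KO tumour 1), and Id2 in KO tumours against culture (0 with library totals; −1.11 to 0.05, the highest without KO tumour 3). Same-numbered libraries of the lines deviated from their group means with r = 0.50 in culture, where 2 libraries a group give 1 value, and 0.00 and 0.04 in tumours. The labels tie no number to a shared batch, so the block is an alternative only; the culture value is a hint that these libraries may share an effect. With the replicate block, called genes of the 10 rose from 4 to 6 in culture (Bmp4, adjusted p = 0.0121, and Id3, 0.000291) and those of the other 52 from 4 to 15; in tumours Id2 gained a call (0.0147) and Bmp4 lost its own (0.0927), and the difference for Id1 lost its call with the block in culture (0.0544). Over all genes, calls in culture were 3461, 7587 with the block and 2130 without WT culture 2; in tumours 3206, 1428 with the block and 1171 to 4143 without 1 library; and for the difference 955, 1875 with no filter, 1565 with DESeq2 and 288 to 1651 without 1 library. Depth limits Nog and Bmp7, which had 3 and 11 counts at most in a library.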
